A study of Homo sapiens with 6 samples.

Results

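The collagen genes of a smooth muscle differentiation series were described across undifferentiated stem cells, day 4 mesoderm and day 21 smooth muscle cells. Members were the genes whose symbol has the form COL, a number, A and a number, each measured by the probe set that carries its symbol alone and, where there were several, by the one with the highest mean over the 6 arrays. They were 43 of the 18417 genes with a probe set of their own. By class, 11 encode fibrillar chains, 6 type IV chains of basement membrane, 10 fibril-associated chains, 5 type VI chains of beaded filaments, and 11 belong to other classes.

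All samples came from WA09, an established line of human embryonic stem cells, so each group is 1 line. Undifferentiated cells (hESC) were kept in defined StemPro medium. The nascent mesoderm cells (INM), labelled as positive for ISL1, had 4 days of BMP4 (50 ng/ml) together with Wnt3a (25 ng/ml), and the smooth muscle cells (SMC) had 21 days of the same supplements. Each group has 2 arrays of total RNA, numbered in the titles, and the labels do not say that these came from separate cultures, so a p-value measures only the spread between arrays, which may be technical.

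Collagens are secreted proteins whose chains wind in threes into a triple helix. Fibrillar collagens build the tension-bearing fibrils of connective tissue and of the vessel wall, where type I and type III predominate. Type IV collagen forms the sheet-like network of basement membranes, type VI makes beaded microfibrils around cells, and fibril-associated collagens sit on the surface of fibrils. In vascular smooth muscle, collagen synthesis is a mark of the matrix-producing state of these cells.

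Values are RMA signals on the log2 scale, so a difference of 1 is a doubling of signal. RMA signals of different genes are not on 1 scale, so only differences of a gene between groups are compared. A gene was called where limma gave an adjusted p under 0.05 over all 18417 genes. A signal under 5.04, the lowest array median of probe sets that name no gene, was not taken as above background, and 41 of the 43 collagen genes lay above it in every group mean. As this level is a median, many such probe sets lie above it too, so a signal above it does not by itself show expression. Marker genes followed the labels in part. Of 6 measured stem cell markers 6 fell from hESC to SMC, but 4 from hESC to INM. LIN28A, at 10.39 and 11.76 in INM, and ZFP42, at 9.99 and 9.44, were not called in that step. ISL1 stood at 9.46 and 9.55 in INM against at most 6.41 in the other groups, and 6 of 7 smooth muscle markers rose from hESC to SMC. Of the 6 nascent mesoderm markers all rose from hESC to INM, but from INM to SMC 2 rose (TBX20 and PDGFRA) and 2 fell (ISL1 and HAND1). Among the smooth muscle markers the calls of TAGLN, SMTN and MYOCD ended without any 1 of the hESC or SMC arrays, and MYOCD fell from INM to SMC by 1.74 (SE 0.24, adjusted p = 0.00444). The marker that did not rise was MYH11, a myosin heavy chain of smooth muscle, at 5.77 and 5.51 in hESC and 5.59 and 5.43 in SMC. The INM arrays stood furthest apart, with a replicate SD of 0.561 over the collagen genes against 0.155 in hESC and 0.0967 in SMC.

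In the fit of all 3 groups a part of the collagen genes rose along the differentiation, mainly fibrillar, type IV and type VI chains. From hESC to INM 11 of 43 rose and 1 fell, where 18.9% of all genes were called higher and 14.8% lower. From INM to SMC 11 rose and 2 fell, against 9.94% and 11.1% of all genes. From hESC to SMC 18 rose and 2 fell, against 19.7% and 17.6% of all genes. Called in either direction were 12, 13 and 20 of the 43 members, and 33.8%, 21.0% and 37.2% of all genes. In percent of the 43 members, the rises came to 25.6, 25.6 and 41.9. The share from hESC to INM lay near that of all genes, 18.9%. The median difference over the 43 genes was 0.26, 0.27 and 0.52, and over all genes -0.03, -0.02 and -0.05. The 3 comparisons share arrays. In these bulk samples a change in the share of cells that express a gene and a change in RNA per cell cannot be told apart.

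Of the 43 genes, 21 were called in at least 1 comparison and 22 in none. The fit of all 3 groups shares 1 estimate of the spread. With only the hESC and SMC arrays in the fit 25 collagen genes rose between them, and 25.1% of all genes were called higher. Of the 25, 7 lay beyond the 18: COL12A1, COL14A1, COL16A1, COL18A1, COL19A1, COL25A1 and COL8A1. Among these COL12A1, COL14A1, COL16A1 and COL19A1 are fibril-associated. The day 4 count depended on the scaling. Centring each array on its median shifted the median difference of all genes from hESC to INM by 0.188. It raised the share of rises among called genes from 56.1% to 76.2%. The count of collagen rises became 19, where 27.7% of all genes were called higher. With quantile normalization the share of rises among called genes was 66.0%. From hESC to SMC, centring moved the share of rises among called genes from 52.8% to 66.5%. With 1 array left out the collagen counts changed, with ranges given at the end, and so did the share of all genes called higher. From hESC to INM both were higher without either INM array and lower without any 1 of the hESC or SMC arrays. From INM to SMC both were lower without either SMC array and higher without either INM array.

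**Figure D1:**
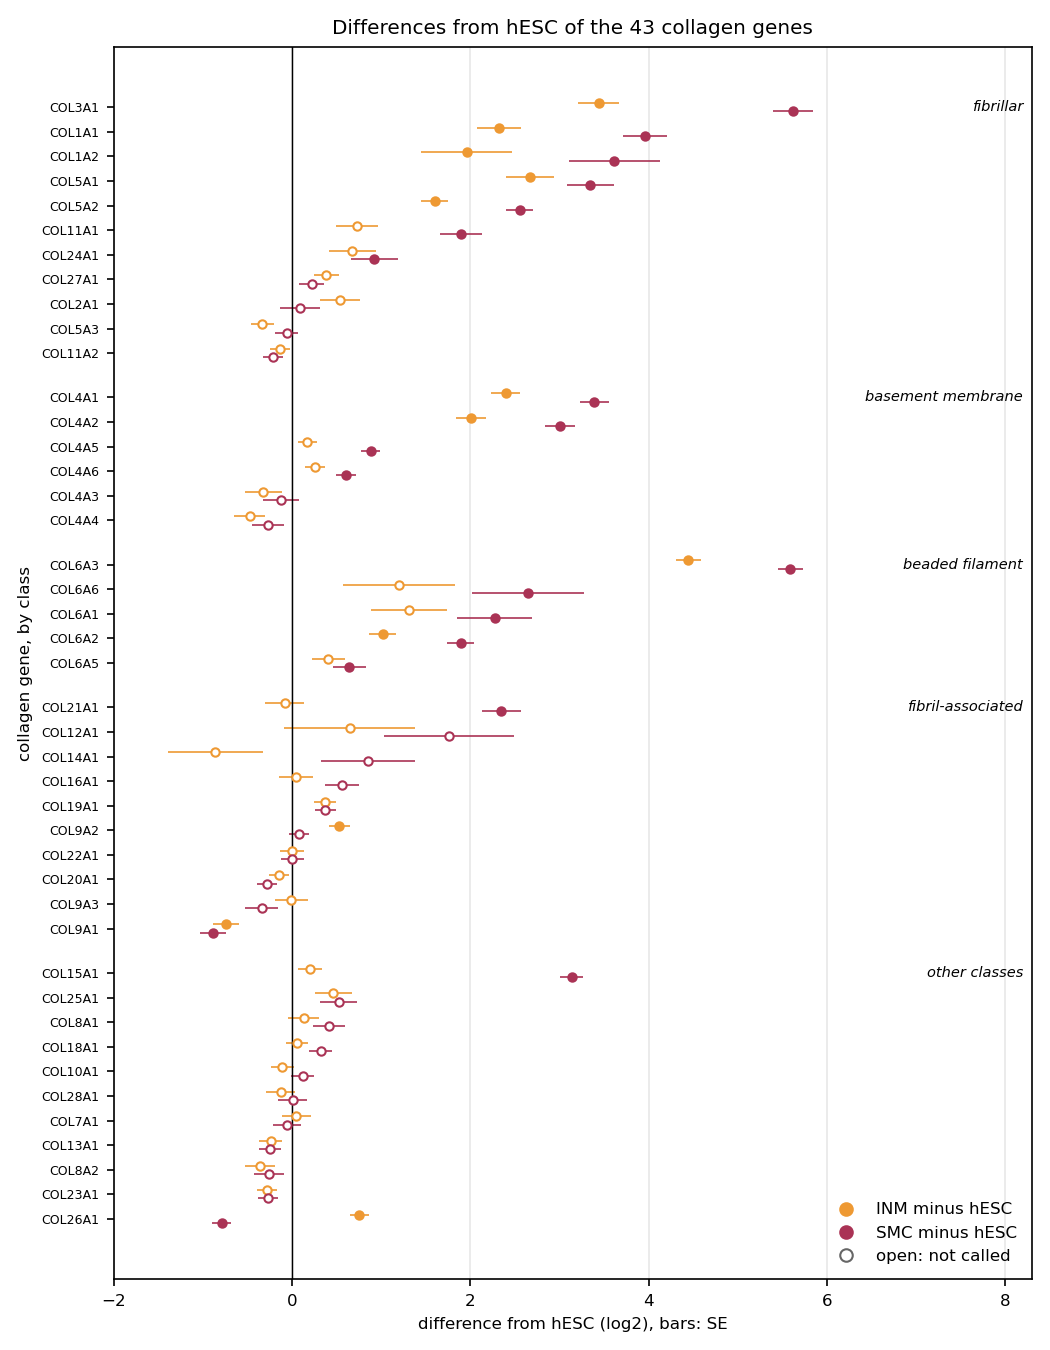
Differences from hESC on the log2 scale for the 43 collagen genes by class, with INM in orange and SMC in red, bars for the SE and open points for differences that were not called. All 5 beaded filament genes, 7 of 11 fibrillar genes and 4 of 6 basement membrane genes have filled SMC points to the right of 0, and COL9A1 and COL26A1 are the filled SMC points to the left.

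Of the 4 largest rises from hESC to SMC, those of COL3A1, COL1A1 and COL1A2 were fibrillar and the other was that of COL6A3. From hESC to SMC 7 of 11 fibrillar genes rose and 0 fell, with a median difference of 1.89. From hESC to INM 5 rose and 0 fell, with a median of 0.73, and from INM to SMC 4 rose and 0 fell, with a median of 0.68. COL3A1, the chain of type III collagen, read 6.80 and 6.50 in hESC, then 10.42 and 9.75 in INM, then 12.30 and 12.24 in SMC. No array of a group overlapped another group. Its rise from hESC to SMC was 5.62 (SE 0.23, adjusted p = 2.43e-05), a 49.1-fold ratio of signals, of which 3.44 (SE 0.23, adjusted p = 0.000182) lay in the first step and 2.18 (SE 0.23, adjusted p = 0.00152) in the second.

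Both chains of type I collagen, the main fibril-forming protein of vessel wall and bone, rose. COL1A1 read 8.65 and 8.66 in hESC, then 11.38 and 10.57 in INM, then 12.63 and 12.59 in SMC. The 3 groups did not overlap, and the rise from hESC to SMC was 15.5-fold, at 3.96 (SE 0.25, adjusted p = 8.69e-05). Its first step was 2.32 (SE 0.25) and its second 1.63 (SE 0.25, adjusted p = 0.00594), and the call of the second step ended without either SMC array (adjusted p up to 0.0587). COL1A2, the second chain of the same trimer, read 8.54 and 8.50 in hESC, then 11.38 and 9.58 in INM, then 12.19 and 12.07 in SMC. The INM arrays lay 1.80 apart, between the other groups. The rise of COL1A2 from hESC to SMC was 3.61 (SE 0.51, adjusted p = 0.00215), a 12.2-fold ratio. Its first step of 1.96 (SE 0.51, adjusted p = 0.0270) became 1.06 without INM replicate 1, and its call ended without any 1 of the hESC or SMC arrays (adjusted p up to 0.127) and with only the hESC and INM arrays in the fit (adjusted p = 0.0621). The second step of COL1A2, 1.65 (SE 0.51, adjusted p = 0.0648), was not called.

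Type V chains, which join type I fibrils and limit their width, differed among themselves, as did type XI chains. COL5A1 read 6.63 and 6.70 in hESC, then 9.77 and 8.88 in INM, then 9.98 and 10.04 in SMC, a rise of 3.35 (SE 0.27, adjusted p = 0.000222) from hESC to SMC. Its first step was 2.66 (SE 0.27, adjusted p = 0.000832), and its second, 0.68 (SE 0.27, adjusted p = 0.126), was not called. COL5A2 read 6.84 and 6.79, then 8.60 and 8.23, then 9.43 and 9.31, with steps of 1.60 and 0.95 (SE 0.15 each). Both steps of COL5A2 were called, the second not without either SMC array (adjusted p up to 0.0709). COL5A3, the third type V chain, stood at 7.35 and 7.08 in hESC and 7.14 and 7.17 in SMC and was not called in any comparison, with differences between -0.34 and 0.27.

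COL11A1, a chain of cartilage fibrils also made by other mesenchyme, read 7.66 and 7.71 in hESC, then 8.78 and 8.04 in INM, then 9.66 and 9.48 in SMC. Its rise from hESC to SMC was 1.89 (SE 0.23, adjusted p = 0.00125). The step from INM to SMC, 1.16 (SE 0.23, adjusted p = 0.0167), was called and that from hESC to INM, 0.73 (SE 0.23, adjusted p = 0.0530), was not, and the former call ended without either SMC array (adjusted p up to 0.122). COL24A1, a minor fibrillar chain, rose by 0.92 (SE 0.26, adjusted p = 0.0334) from hESC to SMC, a call that ended without hESC replicate 2 or either SMC array (adjusted p up to 0.183). The remaining fibrillar genes were not called in any comparison. COL2A1, the chain of cartilage type II collagen, read 7.17 and 7.15 in hESC, then 8.06 and 7.34 in INM, then 7.25 and 7.25 in SMC. With median centring COL2A1 and COL27A1 were called from hESC to INM, at 0.73 and 0.57. COL27A1 differed by 0.22 (SE 0.14) and COL11A2 by -0.21 (SE 0.11) from hESC to SMC. COL11A2 was the only member with more than 1 probe set of its own, and the other 2, with identical values, were not used.

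**Figure D2:**
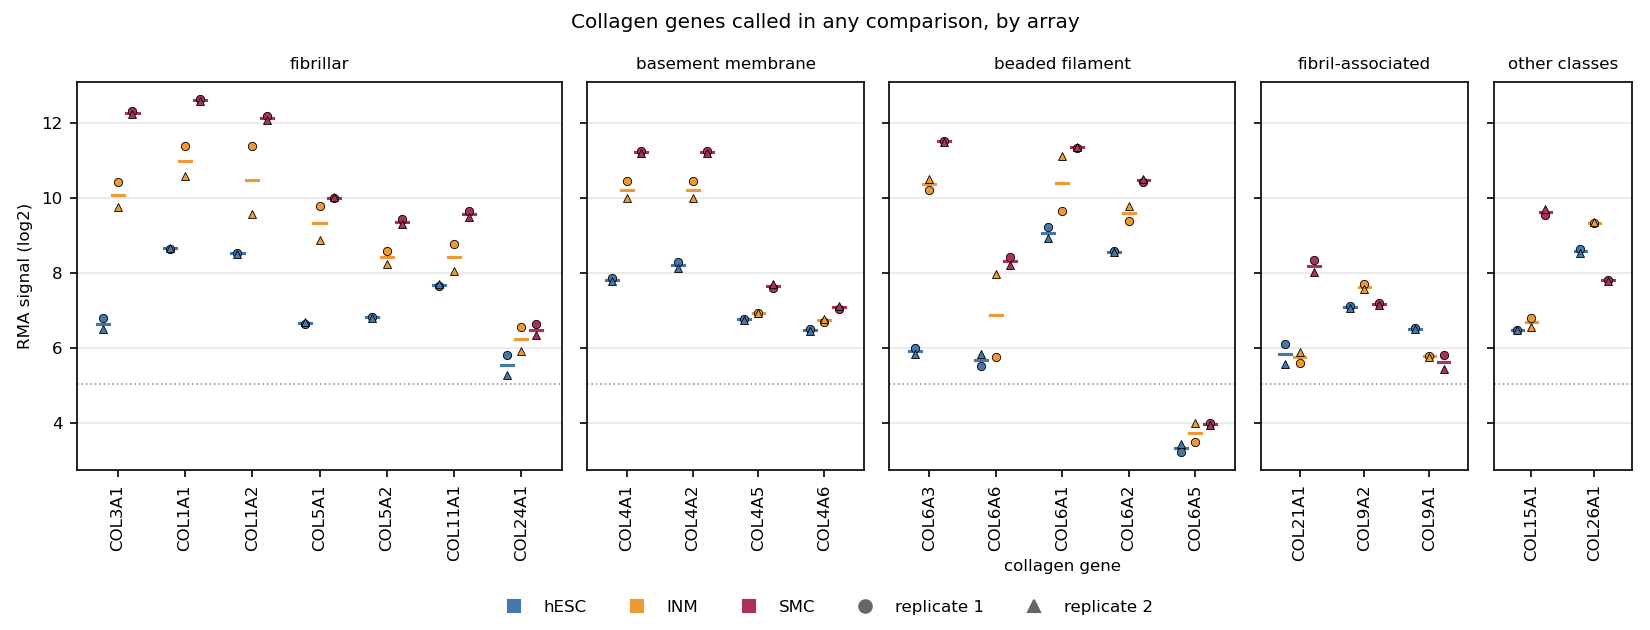
RMA signal (log2) on each of the 6 arrays for the 21 collagen genes called in any comparison, in panels by class, with circles for replicate 1, triangles for replicate 2, short bars for group means and a dotted line at 5.04. COL3A1, COL1A1, COL4A1, COL4A2 and COL6A3 rise from hESC over INM to SMC with no overlap, COL15A1 and COL21A1 are high in SMC, and COL26A1 is highest in INM.

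The 6 type IV chains are encoded by pairs of neighbouring genes that face away from each other, and the pairs differed in how they changed. COL4A1 and COL4A2, whose chains form the common trimer of vascular basement membrane, both rose in both steps. COL4A5 and COL4A6, chains of the smooth muscle and epithelial forms, rose from hESC to SMC by less. COL4A3 and COL4A4, chains of the kidney glomerular form, were not called in any comparison. Of the 6 genes 2 rose and 0 fell from hESC to INM, 3 and 0 from INM to SMC, and 4 and 0 from hESC to SMC, with medians of 0.22, 0.53 and 0.74.

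COL4A1 read 7.86 and 7.78 in hESC, then 10.44 and 9.99 in INM, then 11.24 and 11.18 in SMC. COL4A2 read 8.28 and 8.13 in hESC, then 10.44 and 9.99 in INM, then 11.24 and 11.19 in SMC. In both genes the groups did not overlap and INM replicate 1 was the higher, by 0.45. The first step was 2.40 for COL4A1 (SE 0.17, adjusted p = 0.000207) and 2.01 for COL4A2 (SE 0.17, adjusted p = 0.000396). The second step was 0.99 for COL4A1 (SE 0.17, adjusted p = 0.00847) and 1.0 for COL4A2 (SE 0.17, adjusted p = 0.00862), and both calls of the second step ended without either SMC array (adjusted p up to 0.0769). From hESC to SMC the signals rose 10.5-fold and 8.04-fold.

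COL4A5 read 6.77 and 6.76 in hESC, then 6.93 and 6.93 in INM, then 7.59 and 7.70 in SMC. Its step from INM to SMC was 0.71 (SE 0.11, adjusted p = 0.00624), a call that ended without SMC replicate 2 (adjusted p = 0.0730), and the difference from hESC to SMC was 0.88 (SE 0.11, adjusted p = 0.00123). COL4A6 read 6.51 and 6.44, then 6.69 and 6.78, then 7.04 and 7.13. It was called from hESC to SMC, at 0.61 (SE 0.11, adjusted p = 0.00622), but not without SMC replicate 2 (adjusted p = 0.0602). COL4A3 read 6.25 and 5.78 in hESC, then 5.89 and 5.49 in INM, then 5.78 and 6.0 in SMC, and COL4A4 read 6.15 and 5.75, then 5.56 and 5.38, then 5.80 and 5.55. In both of these genes the 3 groups lay close together, with hESC and SMC overlapping.

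The bases that lie upstream of both genes of a pair, inside the windows of 250 bases before each start, are shown because the 2 genes of each pair share them. They are read on the plus strand of GRCh38.p14 from RefSeq, at chr13:110307158-110307283, chr2:227164374-227164455 and chrX:108439588-108439708. Capitals mark the CCAAT box, the GC box letters GGGCGG or the TATA box letters TATAAA on either strand.
COL4A1 and COL4A2: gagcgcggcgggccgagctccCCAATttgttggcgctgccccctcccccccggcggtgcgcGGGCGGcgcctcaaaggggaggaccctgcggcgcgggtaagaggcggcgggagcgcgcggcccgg
COL4A4 and COL4A3: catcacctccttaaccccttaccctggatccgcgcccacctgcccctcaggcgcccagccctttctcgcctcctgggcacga
COL4A6 and COL4A5: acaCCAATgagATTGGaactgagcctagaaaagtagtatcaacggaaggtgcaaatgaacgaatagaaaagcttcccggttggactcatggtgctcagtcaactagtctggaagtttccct
The starts of COL4A1 and COL4A2 have 126 bases between them, all of which are printed, against 418 between COL4A4 and COL4A3 and 379 between COL4A6 and COL4A5. The stretch between COL4A1 and COL4A2 holds 1 CCAAT and 1 GGGCGG. The shared stretch of COL4A6 and COL4A5 holds 2 CCAAT, and that of COL4A4 and COL4A3 holds none of the 3 motifs. For these later pairs the printed stretch is only a part of the bases between the starts. The full window of 250 bases before COL4A3 holds 2 GGGCGG, and that before this start of COL4A6 holds 3 CCAAT. The motif counts thus depend on how far the windows overlap and do not compare the pairs. A match describes letters only.

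All 5 type VI genes were called higher in SMC than in hESC, with a median difference of 2.27, and 0 fell, but COL6A5 lay under the background level on every array. From hESC to INM 2 of 5 rose and 0 fell, and from INM to SMC 2 of 5 rose and 0 fell. COL6A3, the long chain of the type VI trimer, read 6.01 and 5.83 in hESC, then 10.22 and 10.51 in INM, then 11.52 and 11.50 in SMC. The groups did not overlap, and most of the rise was present at day 4, where the INM arrays stood at 76.9% and 82.1% of the difference between hESC and SMC. Its first step was 4.44 (SE 0.14, adjusted p = 1.66e-05), a 21.8-fold ratio, and its second 1.14 (SE 0.14, adjusted p = 0.00271).

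COL6A2, one of the short chains, read 8.58 and 8.56 in hESC, then 9.39 and 9.78 in INM, then 10.42 and 10.51 in SMC. Its steps were 1.01 (SE 0.15, adjusted p = 0.00369) and 0.88 (SE 0.15, adjusted p = 0.00982), and the second was not called without either SMC array (adjusted p up to 0.0920). COL6A1, the other short chain and the neighbour of COL6A2 on the chromosome, read 9.21 and 8.94 in hESC, then 9.66 and 11.12 in INM, then 11.33 and 11.36 in SMC. One INM array lay near hESC and the other near SMC. COL6A1 was called from hESC to SMC, at 2.27 (SE 0.42, adjusted p = 0.00663), but not without hESC replicate 2 or SMC replicate 2 (adjusted p up to 0.0563). Its first step, 1.31 (SE 0.42, adjusted p = 0.0543), was not called.

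COL6A6, a chain that can take the place of COL6A3 in the trimer, read 5.52 and 5.84 in hESC, then 5.77 and 7.97 in INM, then 8.42 and 8.22 in SMC. INM replicate 1 lay within the hESC range and INM replicate 2 near SMC. The difference from hESC to SMC, 2.65 (SE 0.63, adjusted p = 0.0168), was 6.26-fold, and the call ended without any 1 of the hESC or SMC arrays (adjusted p up to 0.106). COL6A5, a further alternative chain, lay under 5.04 on every array, between 3.24 and 4.00. Its call from hESC to SMC, 0.64 (SE 0.18, adjusted p = 0.0340), ended without any 1 of the hESC or SMC arrays (adjusted p up to 0.181). Nothing here places its level above background.

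The 100 bases before the start of COL6A2, COL6A3 and COL6A6 are shown because they are the called type VI genes that matched the promoter table. They come from RefSeq, GRCh38.p14, on the gene's own strand: COL6A2 from chr21:46098012-46098111 (plus), COL6A3 from chr2:237414165-237414264 (minus) and COL6A6 from chr3:130517077-130517176 (plus). Capitals mark the CCAAT box, the GC box letters GGGCGG or the TATA box letters TATAAA on either strand.
COL6A2: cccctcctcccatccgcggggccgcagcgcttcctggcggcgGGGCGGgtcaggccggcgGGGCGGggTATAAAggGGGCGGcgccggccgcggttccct
COL6A3: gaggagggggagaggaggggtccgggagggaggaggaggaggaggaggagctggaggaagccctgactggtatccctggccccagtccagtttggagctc
COL6A6: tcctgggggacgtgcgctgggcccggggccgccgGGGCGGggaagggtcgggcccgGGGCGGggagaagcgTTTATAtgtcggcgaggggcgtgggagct
COL6A2 and COL6A6 each hold 1 TATAAA and several GGGCGG here, and COL6A3 holds none of the 3 motifs.

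Over the 31 collagen genes with a promoter window, 6 (19.4%) held TATAAA, 10 (32.3%) held CCAAT and 21 (67.7%) held GGGCGG in the 250 bases before a start, on either strand and over all starts listed. Among all 27305 genes with a window the shares were 13.0%, 37.0% and 46.2%. No test was made of these shares.

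In the fit of all 3 groups few fibril-associated collagens were called. Of 10 genes 1 rose (COL21A1) and 1 fell (COL9A1) from hESC to SMC, with a median difference of 0.22. With only the hESC and SMC arrays in the fit COL12A1, COL14A1, COL16A1 and COL19A1 were called higher too. In that fit 25.1% of all genes were called higher. COL21A1, a chain known from vessel wall, read 6.10 and 5.58 in hESC, then 5.61 and 5.91 in INM, then 8.35 and 8.02 in SMC. Both SMC arrays lay above the other 4, which overlapped. Its step from INM to SMC was 2.43 (SE 0.22, adjusted p = 0.000852), a 5.38-fold ratio, and from hESC to INM it differed by -0.08 (SE 0.22, adjusted p = 0.800).

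The 3 chains of type IX collagen, which coats cartilage fibrils, went different ways. COL9A1 read 6.53 and 6.51 in hESC, then 5.79 and 5.77 in INM, then 5.82 and 5.45 in SMC, and was the 1 collagen gene that fell from hESC to INM, by 0.74 on the log2 scale (SE 0.15, adjusted p = 0.0103). That call ended without either hESC array (adjusted p up to 0.0698), and the difference from hESC to SMC was -0.89 (SE 0.15, adjusted p = 0.00406). COL9A2 rose by 0.53 (SE 0.11, adjusted p = 0.0134) from hESC to INM and fell by 0.46 (SE 0.11, adjusted p = 0.0333) from INM to SMC. The rise was not called without either hESC array (adjusted p up to 0.0788), and the fall was not called without any 1 of the hESC or SMC arrays (adjusted p up to 0.194), with the replicate number as a block or with only the INM and SMC arrays in the fit. COL9A3 was not called, at -0.34 (SE 0.19) from hESC to SMC.

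COL12A1 and COL14A1, which bind the surface of type I fibrils, had the INM arrays far apart in opposite directions. COL12A1 read 7.18 and 7.18 in hESC, then 9.14 and 6.51 in INM, then 8.98 and 8.90 in SMC. COL14A1 read 7.71 and 7.73 in hESC, then 5.92 and 7.80 in INM, then 8.51 and 8.63 in SMC. In both genes the SMC arrays lay above both hESC arrays, but neither gene was called: the difference from hESC to SMC was 1.76 in COL12A1 (SE 0.73, adjusted p = 0.106) and 0.85 in COL14A1 (SE 0.53, adjusted p = 0.255). With only the hESC and SMC arrays in the fit, or without either INM array, both were called at these differences (adjusted p = 5.38e-06 and 0.000313). COL16A1, COL19A1, COL20A1 and COL22A1 were not called in any comparison, and their differences from hESC to SMC were 0.56, 0.37, -0.28 and 0.00. COL16A1 and COL19A1 were called from hESC to SMC with only those arrays (adjusted p = 0.0145 and 0.0245), with median centring and with quantile normalization.

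Among the 11 genes of other classes 1 rose (COL15A1) and 1 fell (COL26A1) from hESC to SMC. COL15A1, a multiplexin of basement membrane zones that carries an endostatin-like end, read 6.48 and 6.49 in hESC, then 6.80 and 6.57 in INM, then 9.54 and 9.70 in SMC. The SMC arrays stood well above the other 4. The step from INM to SMC was 2.94 (SE 0.13, adjusted p = 8.47e-05), a 7.65-fold ratio, and that from hESC to INM 0.20 (SE 0.13, adjusted p = 0.277). COL18A1, the other multiplexin and the source of endostatin, was not called, at 0.32 (SE 0.13, adjusted p = 0.0899) from hESC to SMC.

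COL26A1 was highest in INM. It read 8.64 and 8.54 in hESC, then 9.34 and 9.35 in INM, then 7.80 and 7.80 in SMC, with no overlap of groups. It rose by 0.75 (SE 0.11, adjusted p = 0.00309) and then fell by 1.54 (SE 0.11, adjusted p = 0.000336), and ended 0.79 below hESC on the log2 scale (SE 0.11, adjusted p = 0.00189). The other 8 genes of these classes were not called in any comparison: the membrane-spanning COL13A1, COL23A1 and COL25A1, the short-chain COL8A1, COL8A2 and COL10A1, COL7A1 of anchoring fibrils, and COL28A1. Their differences from hESC to SMC ran from -0.27 for COL23A1 to 0.52 for COL25A1. COL8A1 lay under 5.04 in the hESC mean.

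A contrast of the steps, added after the data were seen, asked whether a gene's difference from hESC to INM departs from its difference from INM to SMC. It was called for 24.2% of all genes and for 8 of the 43 collagen genes. The first step was the more positive in COL6A3, by 3.30 (SE 0.24, adjusted p = 0.000470), and in COL26A1, by 2.30 (SE 0.19, adjusted p = 0.000668). The second was the more positive in COL15A1, at -2.73 (SE 0.23, adjusted p = 0.000692), and in COL21A1, at -2.51 (SE 0.38, adjusted p = 0.00559). These 4 were called in all 6 fits with 1 array left out. The first step was also called the more positive in COL4A1 (1.4), COL4A2 (1.01), COL5A1 (1.98) and COL9A2 (0.99), which kept the call in 2, 1, 2 and 2 of those fits. Without INM replicate 1 the contrast was 0.95 for COL4A1, 0.57 for COL4A2 and 1.09 for COL5A1. Over the 18 genes that rose from hESC to SMC, 12, COL6A5 among them, had covered more than 50% of the log2 difference in the INM mean, and in 14 both INM arrays lay between the hESC and the SMC arrays.

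The INM arrays differed by class. On the probe sets used, all 11 fibrillar genes were higher on INM replicate 1, with a median difference between the arrays of 0.67. In COL5A3 the difference was 0.02. The 2 unused probe sets of COL11A2 went the other way, at 6.50 on INM replicate 1 and 6.89 on replicate 2. All 5 type VI genes were higher on INM replicate 2, with a median of -0.51. Over all genes replicate 1 was the higher in 48.7%. In 5 collagen genes the pair lay more than 1 apart: COL12A1 and COL1A2 were higher on replicate 1, by 2.62 and 1.80, and COL6A6, COL14A1 and COL6A1 on replicate 2, by 2.20, 1.87 and 1.46. No collagen gene differed by more than 1 within the hESC or the SMC pair. The 6 nascent mesoderm markers were all higher on INM replicate 2, with a median of -1.04, and their summed signal ran from 7340 to 9930 in INM, from 517 to 534 in hESC and from 6280 to 6370 in SMC. No member of that list lay under 5.04 in a group mean. The 6 cross-linking genes were all higher on INM replicate 1. The part of these differences in the collagen values was not tested.

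**Figure D3:**
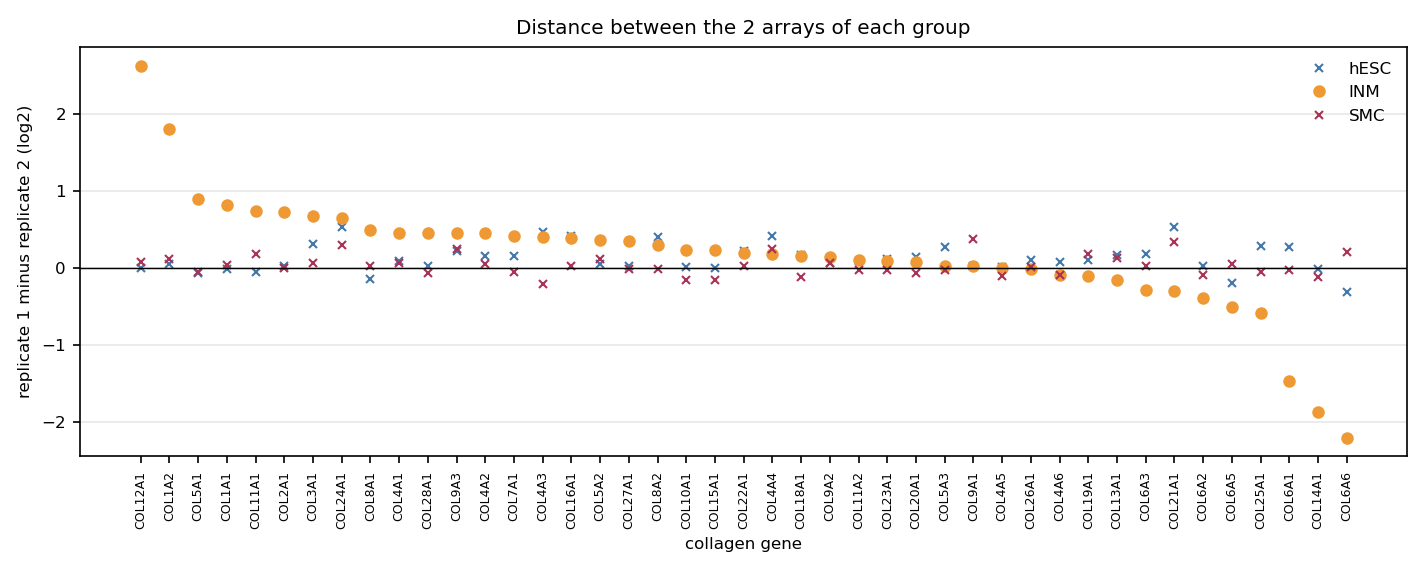
Replicate 1 minus replicate 2 on the log2 scale for each of the 43 collagen genes, ordered by the INM pair, with INM as orange circles, hESC as blue crosses and SMC as red crosses. The INM pair spans from 2.62 in COL12A1 to -2.20 in COL6A6, while no hESC or SMC pair is more than 1 apart.

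Many genes that make, process, cross-link and bind collagen rose too. In 5 lists 47 genes were measured. From hESC to INM 28 rose and 0 fell, where 18.9% of all genes were called higher and 14.8% lower. From INM to SMC 24 rose and 3 fell, against 9.94% and 11.1% of all genes. From hESC to SMC 31 rose and 2 fell, against 19.7% and 17.6%, with a median difference of 1.49. The same shares of all genes stand beside the counts of each list below, some of which are small. The day 4 count of rises and that from INM to SMC were lower without any 1 of the hESC or SMC arrays. Both counts were higher without either INM array. The share of all genes called higher moved the same way in those fits. The 3 falls from INM to SMC were those of P3H2, ADAMTS2 and DDR1, and the 2 falls from hESC to SMC those of P3H2 and DDR1.

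Hydroxylation of proline and lysine, which steadies the helix and prepares cross-links, had 12 of 13 genes higher and 1 lower in SMC than in hESC. PLOD2, a lysyl hydroxylase of the chain ends, read 8.73 and 8.67 in hESC, then 10.20 and 10.96 in INM, then 11.80 and 11.63 in SMC, a rise of 3.01 (SE 0.24). The catalytic subunits of prolyl 4-hydroxylase rose by 2.98 (P4HA2), 2.73 (P4HA1) and 2.72 (P4HA3). P4HA3 read 5.62 and 5.38 in hESC, then 5.76 and 5.44 in INM, then 8.19 and 8.25 in SMC, a step of 2.62 (SE 0.15, adjusted p = 0.000175) from INM to SMC. P3H2, a prolyl 3-hydroxylase that acts on type IV collagen, was the gene that fell, by 0.45 (SE 0.13, adjusted p = 0.0342), a call that ended without any 1 of the hESC or SMC arrays (adjusted p up to 0.165).

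For chaperones and export, 6 of 9 measured genes rose and 0 fell from hESC to SMC. CREB3L1, a transcription factor known to drive COL1A1, read 6.92 and 6.93 in hESC, then 8.74 and 8.59 in INM, then 10.63 and 10.84 in SMC, a 14.0-fold rise of 3.81 (SE 0.13, adjusted p = 1.79e-05). Further rises were those of FKBP14 (2.34) and FKBP10 (1.58), which fold procollagen, and of the matrix protein SPARC (1.57). COLGALT1, which adds galactose to hydroxylysine, rose by 1.49 and SERPINH1, the collagen chaperone HSP47, by 1.23. Among propeptide processing genes 3 of 10 rose and 0 fell from hESC to SMC: PCOLCE, which enhances C-propeptide cleavage, by 2.99, its relative PCOLCE2 by 1.59, and the C-proteinase BMP1 by 2.01. ADAMTS2, an N-proteinase, read 7.53 and 7.40 in hESC, then 9.14 and 9.18 in INM, then 7.58 and 7.72 in SMC, a rise of 1.69 and then a fall of 1.51 on the log2 scale (SE 0.12 each).

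All 6 cross-linking genes rose from hESC to SMC. LOX, the lysyl oxidase of fibrils, read 5.70 and 5.74 in hESC, then 9.06 and 8.04 in INM, then 12.56 and 12.58 in SMC, a 116-fold rise of 6.85 (SE 0.30, adjusted p = 2.90e-05). TGM2, a transglutaminase, read 6.92 and 6.76, then 12.63 and 11.05, then 10.71 and 10.79, and rose by 5.00 (SE 0.45, adjusted p = 0.000566) in the first step. Its second step, -1.09 (SE 0.45, adjusted p = 0.144), was not called. LOXL4 and LOXL2 rose by 2.57 and 2.56 from hESC to SMC.

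Of 9 measured collagen receptors 4 rose (ITGA11, DDR2, MRC2 and ITGB1) and 1 fell (DDR1) from hESC to SMC. ITGA11, the integrin chain for fibrillar collagen, read 6.15 and 6.24 in hESC, then 10.18 and 8.27 in INM, then 11.10 and 11.16 in SMC, a rise of 4.93 (SE 0.54, adjusted p = 0.000750). DDR2, a receptor kinase for fibrillar collagen, rose by 4.85 (SE 0.23, adjusted p = 3.90e-05), and DDR1, its epithelial relative, fell by 0.77 (SE 0.14, adjusted p = 0.00521). MRC2, which takes up collagen fragments, rose by 3.18. ITGB1 rose by 0.89 (SE 0.22, adjusted p = 0.0206), a call that ended without any 1 of the hESC or SMC arrays (adjusted p up to 0.130). ITGA2, the integrin chain for type I collagen, had INM arrays at 9.77 and 7.58 and was not called.

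**Figure D4:**
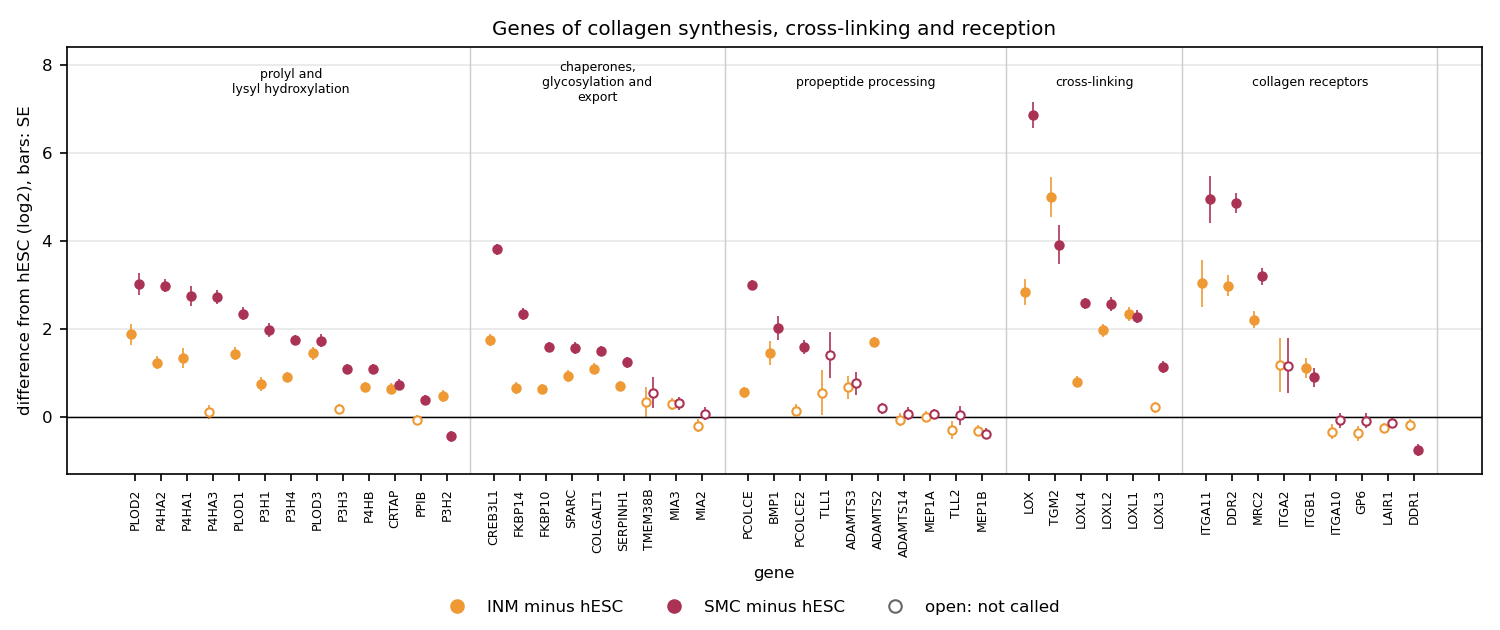
Differences from hESC on the log2 scale for the 47 measured genes of collagen hydroxylation, chaperones and export, propeptide processing, cross-linking and reception, with INM in orange, SMC in red, bars for the SE and open points for differences that were not called. LOX reaches 6.85 in SMC, TGM2 stands at 5.00 in INM and 3.91 in SMC, and P3H2 and DDR1 are the filled SMC points below 0.

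Markers of other cell types moved beside the collagen genes. Of all genes, 18.9% were called higher and 14.8% lower from hESC to INM, and 9.94% and 11.1% from INM to SMC. From hESC to SMC these shares were 19.7% and 17.6%. Each list is given by its counts and by a sum of linear signals, which adds probe sets that are not on 1 scale and is led by its brightest genes. All 6 fibroblast markers (DCN, LUM, POSTN, THY1, FAP and TCF21) rose from hESC to SMC, and their summed signal ran from 2000 to 2060 in hESC, 4190 to 4720 in INM and 13800 to 14100 in SMC. THY1 fell from hESC to INM by 1.67 (SE 0.21, adjusted p = 0.00201), and its rise from hESC to SMC was not called without any 1 of the hESC or SMC arrays. In hESC the means of DCN, LUM and FAP lay under 5.04, and in INM those of DCN and FAP.

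Of 9 chondrocyte markers 7 rose and 1 fell from hESC to INM, 0 rose and 4 fell from INM to SMC, and 5 rose and 1 fell from hESC to SMC. Their summed signal ran from 1870 to 1980 in hESC, 6270 to 6860 in INM and 1730 to 1770 in SMC. HAPLN1, a cartilage link protein, read 5.77 and 5.93 in hESC, then 11.87 and 12.39 in INM, then 7.96 and 7.73 in SMC, and CNMD, chondromodulin, was the gene that fell from hESC to INM. Of 5 measured osteoblast markers 1 rose (RUNX2) and 2 fell (ALPL and SPP1) from hESC to SMC. Their sums were 4740 to 4780 in hESC, 2980 to 5100 in INM and 956 to 986 in SMC. The hESC means of SPP1 and ALPL were 11.63 and 10.38, and those of RUNX2, SP7 and IBSP 6.49, 6.94 and 5.26.

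Of 5 endothelial markers 2 rose from hESC to SMC and 0 fell, PECAM1 by 1.43 (SE 0.17, adjusted p = 0.00121) and CDH5 by 0.95 (SE 0.25, adjusted p = 0.0240), the latter not without any 1 of the hESC or SMC arrays. TEK, VWF and KDR were not called, and the sums ran from 1860 to 1890 in hESC, 993 to 4450 in INM and 2410 to 2420 in SMC. Of 6 epithelial markers 2 rose (KRT8 and KRT18) and 2 fell (EPCAM and CDH1) from hESC to SMC, with sums of 7120 to 7220, 15200 to 16900 and 7770 to 8290 in hESC, INM and SMC. No chondrocyte, osteoblast, endothelial or epithelial marker lay under 5.04 in a group mean. The part of such cells in the collagen values was not tested.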

How the data were processed

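The deposited table holds log2 expression values of 33297 probe sets on 6 Affymetrix arrays. Per the submitters' processing notes, RMA and limma were used by the authors, without versions. RMA settings, array build and any centring are unknown here. Depth has no meaning for arrays, and their number limits the precision.

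Gene names came from GEO's annotation of the platform, with 19460 of 1 symbol, 1754 of several and 12083 unnamed. For 19429 of those with 1 symbol the Entrez identifier was found in the GRCh38.p14 annotation, and the symbol given there was used, changed or not. Values were used as deposited. With limma 3.58.1 (R 4.3.3), lmFit and eBayes estimated the means of 3 groups from all 6 arrays (3 residual and 3.56 prior degrees of freedom, two-sided, Benjamini-Hochberg over 18417 genes). With 2 arrays in each group, the smallest p of an exact permutation test is 0.333. The fit was tested on simulated data.

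The members and lists were chosen with earlier results of these data known. Every collagen gene is named, with values on all arrays for those called with a difference of at least 2, type I, III and IV chains and COL6A1 to COL6A3. Other genes shown by array were chosen after their values were seen. Of each biosynthesis or receptor list, up to 4 called genes and any behind a count of 5 or fewer are named. In the marker lists the genes behind a count are named only in part. Any further gene was chosen after its values were seen. COL17A1, COLGALT2 and ITGA1 were not analysed here. Alternatives were each array left out, a replicate block, median centring, quantile normalization, a low-signal filter, the mean of probe sets and only the 2 groups compared.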

Additional observations from a re-analysis of the deposited data

How the results depend on the processing

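Of 45 calls of single collagen genes over the 3 comparisons, 29 passed in each of the 6 fits that omit an array, 2 ended under another setting, and 0 changed direction under any setting tried. With 1 array left out, collagen rises ranged from 9 to 17 (INM versus hESC), 4 to 17 (SMC versus INM) and 13 to 25 (SMC versus hESC), and collagen falls from 0 to 3, 1 to 4 and 2 to 2. Biosynthesis and receptor rises ranged from 17 to 30, 13 to 28 and 29 to 36, and their falls from 0 to 2, 1 to 6 and 1 to 3. A group left with 1 array was assumed to vary like the others, and the share of all genes called also changed between these fits. With the replicate block, collagen falls numbered 2 in INM versus hESC and 1 in SMC versus INM, and biosynthesis and receptor falls 1 in SMC versus hESC. Median centring gave 19 collagen rises in INM versus hESC and 1 biosynthesis and receptor fall in SMC versus hESC. With only the 2 groups compared, collagen falls in SMC versus INM numbered 1. The other counts under these settings, quantile normalization, the low-signal filter and the mean of probe sets stayed within 1.5 times. The labels do not say whether arrays of the same number form a pair. Deviations of same-numbered arrays correlated across genes at 0.0737 (hESC and INM), -0.119 (hESC and SMC) and -0.067 (INM and SMC). Genes are not replicates and each group gives 1 difference, so these values cannot decide it. On the 4 arrays of hESC and SMC, a block by number gave 24 collagen rises and 3 falls, and a crossed pairing, added after the data were seen, 25 and 3. Of all 18417 genes these fits called 8940 and 9713 in either direction, against 6859 from hESC to SMC in the main fit. The sources used here give no signal over background for single probe sets.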
